A study of Arabidopsis thaliana with 57 samples.

Results

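The plant cuticle is a lipid layer that epidermal cells lay down on their outer wall. Its wax is made from fatty acids that the elongase of the endoplasmic reticulum lengthens and that the CER enzymes turn into alkanes, alcohols and esters. Its cutin is a polyester of hydroxylated fatty acids joined to glycerol. ABC transporters and lipid transfer proteins carry both to the surface, and guard cells line the stomatal pore and its ledges with the same material. The 36 genes described here were chosen by their AGI identifiers as genes of this pathway, out of 27655 genes in the count table. All 36 were found in the table.

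RNA was sequenced from 57 libraries of Arabidopsis seedlings, 10 days old, in which dexamethasone (DEX, 30 µM) induced a Venus-tagged protein for 2, 3 or 4 h. All 5 lines carried the same driver, FAMAp::LHG4-GR, which restricts induction to cells that use the FAMA promoter, that is, late guard mother cells and guard cells, and to a few myrosin cells. The lines expressed Venus with a nuclear localization signal (NLS, the control, 11 libraries), the basic helix-loop-helix factor FAMA (11 libraries), its relative SPCH (SPEECHLESS, 12 libraries), or either factor fused to the SRDX repression domain (SRDX-FAMA, 12 libraries, and SRDX-SPCH, 11 libraries). Controls were thus treated with DEX as well, and no untreated group was analysed here. Each library came from about 3000 Venus-positive cells sorted from protoplasts of true leaves. Each line and time point had 3 or 4 libraries, which the study's methods call biological replicates without saying whether they were grown apart, so p-values measure the spread between these libraries. The study raised the possibility that a different fluorescence strength let other cells into the NLS sort, which was not tested here.

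Library totals ran from 7296381 to 60348384 counts with a median of 33317326. The induced factors fitted the labels in all libraries but a few. The library labelled SRDX-FAMA 4 h replicate 2 had 9663 CPM of SPCH (counts scaled to a common library size) and 345 CPM of FAMA, whereas in the other SRDX-FAMA libraries FAMA stood at 2181 CPM or more and SPCH no higher than 43.9 CPM. It also nearly matched the library SRDX-SPCH 2 h replicate 3 (chi-square per degree of freedom of the counts over genes, 1.27, against 14.9 for the next nearest library). It is kept under its label below, and the counts of cuticle genes called against NLS and against FAMA are also given without it. Medians and signs over the genes, marker values, the second gene list and changes over time in SRDX-FAMA are given only with it. FAMA 3 h replicate 3 carried 280 CPM of SPCH against 5.61 to 25.3 CPM in the other FAMA libraries. Markers of the stomatal lineage were present throughout. Summed over 9 markers, mature guard cell transcripts ranged from 1008 to 2976 CPM in NLS, and 7 markers of meristemoids and guard mother cells summed to between 169 and 301 CPM. Phloem markers (2 genes) summed to 12.4 to 20.4 CPM on average over the lines and trichome markers (3 genes) to 6.44 to 7.57 CPM, and none of these was called in any comparison of lines. Mesophyll markers (4 genes) summed to 2641 to 3347 CPM on average over the lines, with none called between lines. The 2 genes listed as myrosin markers, TGG1 and TGG2, summed to 24085 to 67543 CPM, most of it TGG1 (line means of 22861 to 57357 CPM). Whether their transcripts came from myrosin cells or from the guard cells sorted with them was not tested, here or in the comparisons below.

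The genes fall into 5 roles. Fatty acid elongation is represented by 10 genes. KCS1 (AT1G01120), KCS2 (AT1G04220), KCS9 (AT2G16280), KCS20 (AT5G43760), CER6 (AT1G68530) and FDH (AT2G26250) encode 3-ketoacyl-CoA synthases, the condensing enzymes that set chain length. CER2 (AT4G24510) assists them on the longest chains, and KCR1 (AT1G67730), PAS2 (AT5G10480) and CER10 (AT3G55360) encode the reductase, dehydratase and enoyl reductase that complete each cycle. Of the 6 wax genes, CER1 (AT1G02205) and CER3 (AT5G57800) form alkanes together, CER4 (AT4G33790) makes primary alcohols, MAH1 (AT1G57750) oxidizes alkanes, WSD1 (AT5G37300) joins wax esters and LACS1 (AT2G47240) activates fatty acids. The 11 cutin genes comprise the acyl-CoA synthetase LACS2 (AT1G49430), the fatty acid hydroxylases CYP86A2 (AT4G00360) and CYP86A8 (AT2G45970), the oxidoreductase HTH (AT1G72970), the acyltransferases GPAT4 (AT1G01610), GPAT6 (AT2G38110), GPAT8 (AT4G00400) and DCR (AT5G23940), the hydrolase BDG1 (AT1G64670), and the GDSL lipases LTL1 (AT3G04290) and AT5G33370. Export is covered by 5 genes, the transporters ABCG11 (AT1G17840) and CER5 (AT1G51500) and the lipid transfer proteins LTPG1 (AT1G27950), LTP1 (AT2G38540) and LTP2 (AT2G38530). The 4 regulators are SHN1 (AT1G15360), MYB16 (AT5G15310), MYB96 (AT5G62470) and MYB106 (AT3G01140).

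FAMA and SPCH, like other basic helix-loop-helix factors, bind E-boxes, and the L1 box is the element bound by epidermal homeodomain factors such as ATML1. The 250 bases before the annotated start of each gene (RefSeq, TAIR10.1) were searched on both strands for the E-box CANNTG, the G-box CACGTG and the L1 boxes TAAATGCA and TAAATGTA. A G-box is also an E-box. An E-box occurred in 24 of the 36 windows (66.7%) and in 55.3% of the windows of 27443 protein-coding genes. No window of the 36 held a G-box, against 6.49% of all windows. Either L1 box was found in 5 windows (13.9%, against 4.49% of all), those of KCS9, FDH, AT5G33370, ABCG11 and MYB96. The windows shown belong to the 5 genes with the smallest adjusted p in SRDX-FAMA against FAMA and to CYP86A8 and LTL1, the genes lower in FAMA than in NLS. They are written 5′ to 3′ on the strand of the gene, ending at the base before the start, with E-boxes in capitals.
LTP2, chr2:16127926-16128175, forward strand: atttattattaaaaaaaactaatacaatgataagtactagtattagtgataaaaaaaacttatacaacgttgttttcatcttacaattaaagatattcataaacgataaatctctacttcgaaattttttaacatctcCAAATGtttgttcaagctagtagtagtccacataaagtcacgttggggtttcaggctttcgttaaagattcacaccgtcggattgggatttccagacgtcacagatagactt
KCS1, chr1:59216-59465, reverse strand: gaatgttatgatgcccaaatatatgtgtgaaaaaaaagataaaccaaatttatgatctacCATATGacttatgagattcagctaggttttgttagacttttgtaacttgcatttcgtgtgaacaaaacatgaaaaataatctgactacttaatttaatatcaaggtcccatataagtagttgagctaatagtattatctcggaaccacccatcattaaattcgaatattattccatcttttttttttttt
KCS20, chr5:17585273-17585522, forward strand: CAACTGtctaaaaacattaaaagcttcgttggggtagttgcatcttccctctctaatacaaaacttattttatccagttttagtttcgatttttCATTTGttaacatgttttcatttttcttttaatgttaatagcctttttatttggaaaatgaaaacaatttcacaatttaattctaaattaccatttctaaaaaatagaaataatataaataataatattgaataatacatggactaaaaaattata
CER1, chr1:418166-418415, forward strand: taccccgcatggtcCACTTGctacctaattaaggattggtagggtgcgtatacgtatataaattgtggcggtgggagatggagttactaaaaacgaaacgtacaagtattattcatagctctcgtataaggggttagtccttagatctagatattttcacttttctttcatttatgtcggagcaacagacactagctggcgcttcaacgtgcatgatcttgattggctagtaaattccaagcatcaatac
LACS2, chr1:18290692-18290941, forward strand: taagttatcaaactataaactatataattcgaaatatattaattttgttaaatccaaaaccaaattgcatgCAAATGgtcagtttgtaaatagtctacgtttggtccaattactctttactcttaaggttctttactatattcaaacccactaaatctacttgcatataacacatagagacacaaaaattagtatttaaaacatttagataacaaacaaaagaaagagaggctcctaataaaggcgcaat
CYP86A8, chr2:18914740-18914989, reverse strand: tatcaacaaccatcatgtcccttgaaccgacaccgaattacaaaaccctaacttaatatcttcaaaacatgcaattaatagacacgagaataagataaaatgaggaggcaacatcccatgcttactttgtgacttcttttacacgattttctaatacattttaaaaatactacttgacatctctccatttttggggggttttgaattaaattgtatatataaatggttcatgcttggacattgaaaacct
LTL1, chr3:1136398-1136647, reverse strand: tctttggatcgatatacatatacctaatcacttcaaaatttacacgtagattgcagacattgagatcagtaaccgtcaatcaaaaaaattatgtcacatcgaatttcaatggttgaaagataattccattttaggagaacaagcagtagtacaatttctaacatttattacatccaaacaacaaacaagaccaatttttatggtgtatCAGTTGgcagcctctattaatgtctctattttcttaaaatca
The window of CYP86A8 contained neither motif and the other 6 held an E-box each, KCS20 with a second. A match of letters describes the sequence and is not evidence of binding.

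In the control cells, the levels spanned more than 3 orders of magnitude (CPM per kb of exon, so that genes can be compared). KCS20 was highest at 298 ± 45.9 CPM per kb (SD, n = 11 for this and the following values), then the hydroxylase gene CYP86A2 at 237 ± 92.1 and LTPG1 at 193 ± 58.7. CYP86A2 overlapped within the SDs with both KCS20 and LTPG1. CER6, MYB96, FDH, CER5, CER3 and LTP1 followed between 102 and 122 CPM per kb, with means closer to each other than their SDs of 22.8 to 64.6. The alkane-forming partners were unequal, CER3 at 106 ± 22.8 CPM per kb and CER1 at 1.62 ± 0.477. LTP1 and LTP2, neighbours on chromosome 2, likewise stood at 102 ± 64.6 and 1.07 ± 0.360. The 5 lowest genes, CER4, AT5G33370, MAH1, SHN1 and WSD1, were at or below 0.273 CPM per kb, and SHN1 had no count in 3 of the 57 libraries. SHN1 passed the filter on low counts only in SRDX-FAMA against NLS, and AT5G33370 was also removed in SRDX-SPCH against SPCH, which left 34 to 36 genes tested per comparison of lines.

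**Figure D1:**
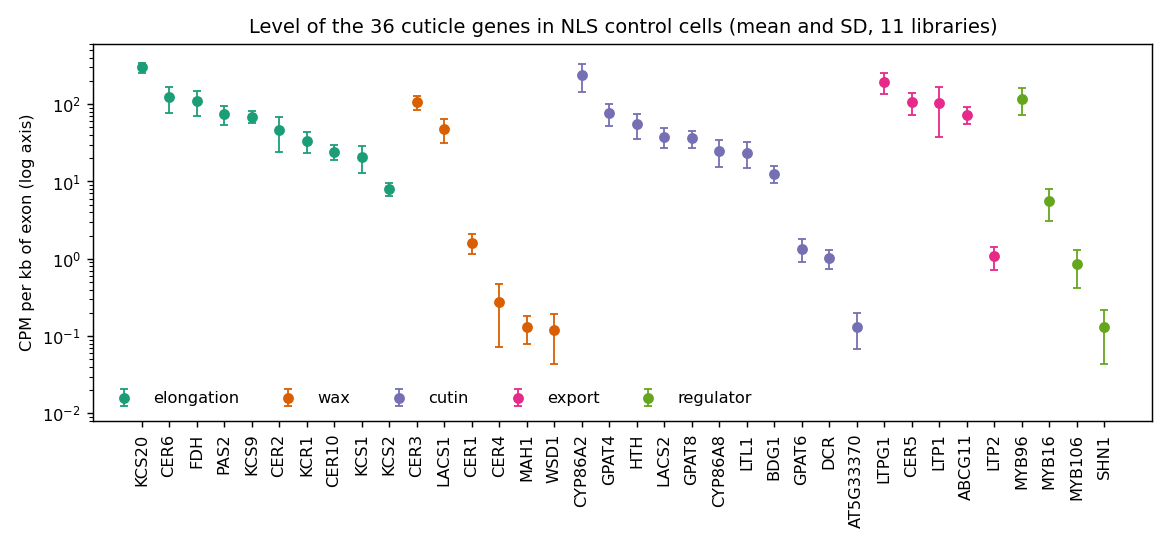
Mean level of each of the 36 genes in the 11 NLS libraries, in CPM per kb of exon on a log axis, with SD as error bars and colours for the 5 roles. KCS20, CYP86A2 and LTPG1 lead at 298, 237 and 193, while CER4, AT5G33370, MAH1, SHN1 and WSD1 lie at or below 0.273.

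Does FAMA change the cuticle genes in late lineage cells? In FAMA against NLS over all time points, 2 of 35 genes tested fell (5.71%) and none rose. This share is close to that of all 24366 genes tested, of which 5.47% were lower. Both encode cutin enzymes. CYP86A8, a fatty acid omega-hydroxylase, had between 32.6 and 108 CPM in NLS (median 64.5) and between 16.0 and 52.3 CPM in FAMA (median 32.8). None of the 11 FAMA libraries exceeded the NLS median and 5 lay below the lowest NLS library, although the groups overlapped. Its log2 fold change was -1.05 (standard error, SE, of 0.21, adjusted p = 0.00222 from edgeR). LTL1, a GDSL lipase, had between 12.1 and 58.2 CPM in NLS (median 35.9) and between 5.0 and 85.4 CPM in FAMA (median 14.3). Of the FAMA libraries, 5 were below the lowest NLS library and 1, from 2 h, was above the highest. Its log2 fold change was -1.22 (SE 0.35, adjusted p = 0.0341), and the study picked LTL1 from these same libraries, so its call is not independent evidence. The call on LTL1 was lost, with adjusted p between 0.0505 and 0.0739, without any of 10 libraries: NLS 3 h replicates 1 and 4, NLS 4 h replicates 1 and 4, FAMA 2 h replicate 1, FAMA 3 h replicates 1 and 3, FAMA 4 h replicates 1 and 2 and the FAMA 4 h library with no number. Without FAMA 3 h replicate 3, CYP86A8 remained as the 1 gene called, with 4.24% of all genes lower. CYP86A8 was called without each of the 22 libraries in turn.

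The other 33 genes tested had log2 differences between -0.43 and 0.37. By role, 9 of the 11 cutin genes had a negative log2 difference (median -0.31), whereas the 6 wax genes had a median of 0.14 and the 10 elongation genes one of -0.03. The median over the 35 genes was -0.05 and that over all genes 0.04. Epidermal markers also differed between these lines: of 4 L1 markers, PDF1, PDF2 and HDG2 were lower in FAMA. The study also picked PDF1 and HDG2 from these libraries, so their calls here and below are not independent evidence. The summed level of all 4 ranged from 171 to 397 CPM in FAMA and from 311 to 559 CPM in NLS. Of the 7 meristemoid and guard mother cell markers 5 were lower, and of the 9 mature guard cell markers 2 were higher. The part of these in the differences of CYP86A8 and LTL1 was not tested. In sorted cells measured in bulk, fewer cells of one type and less RNA per cell cannot be told apart.

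SPCH was compared with NLS in the same way. KCS1 was the 1 gene of 35 called (2.86%, against 4.13% of 24611 genes lower). It had between 16.6 and 71.9 CPM in NLS (median 45.2) and between 11.9 and 42.0 CPM in SPCH (median 23.4), and none of the 12 SPCH libraries reached the NLS median. Its log2 fold change was -0.76 (SE 0.23, adjusted p = 0.0427 from edgeR). The call was lost, with adjusted p up to 0.108, without any of 16 of the 23 libraries, and held without NLS 2 h replicate 1, NLS 3 h replicates 1 and 2, NLS 4 h replicate 1, SPCH 2 h replicate 2 and SPCH 3 h replicates 1 and 3. LTL1 had between 3.89 and 76.7 CPM in SPCH (median 16.9) and a log2 difference from NLS of -1.04 (SE 0.37, adjusted p = 0.10). Without SPCH 2 h replicate 2, the library at 76.7 CPM, LTL1 passed the threshold with a log2 fold change of -1.28. It also passed with the letter of the library name, whose meaning the labels do not give, as a block (-1.58, adjusted p = 0.000219). The median over the 35 genes was -0.04, against 0.01 over all genes. Of the 35, 21 had negative values, as did 48.6% of all genes. Of the L1 markers, ATML1 and PDF1 were lower in SPCH (level summed over the 4, 167 to 496 CPM against 311 to 559), and both myrosin markers were higher, TGG2 by 2.08 on the log2 scale. Of the 9 guard cell markers 2 were higher, and of the 7 meristemoid and guard mother cell markers 3 were lower. Their part in the KCS1 call was not tested. FAMA and SPCH share the NLS libraries as control.

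**Figure D2:**
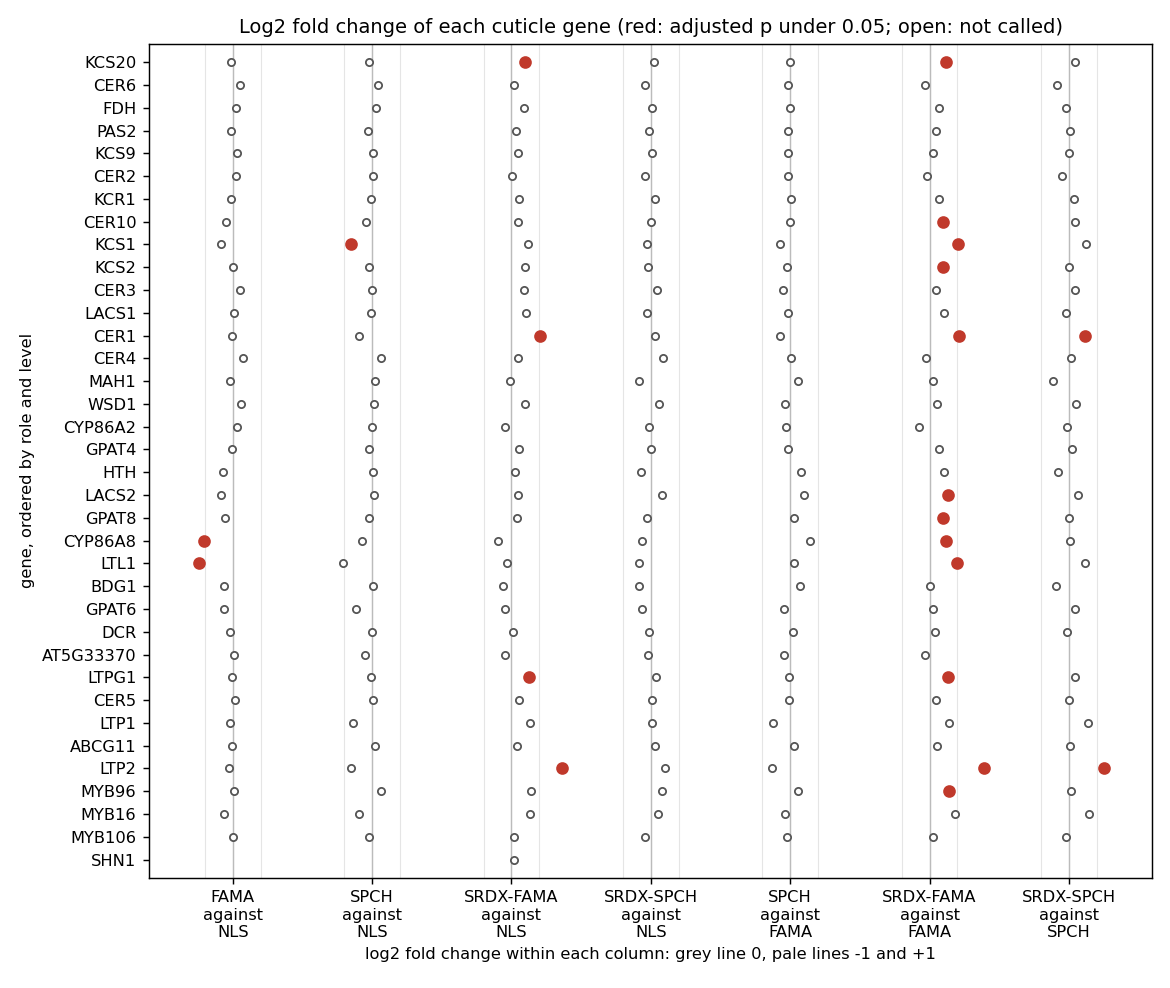
Log2 fold change (edgeR) of each gene in the 7 comparisons of lines, 1 column each, with a grey line at 0 and pale lines at -1 and 1. Filled red points were called at an adjusted p under 0.05, and blank places are genes removed by the filter. Red points are most frequent in SRDX-FAMA against FAMA, where 12 genes lie to the right, and absent in SRDX-SPCH against NLS and SPCH against FAMA.

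In SRDX-FAMA the cuticle genes called were higher by edgeR without a block, and the letter block also called CYP86A8, lower than in NLS (-0.46, adjusted p = 0.0222). Against NLS, 4 of 36 genes rose (11.1%) and none fell, while 0.929% of 24327 genes were higher. LTP2, a lipid transfer protein gene, had between 0.561 and 1.75 CPM in NLS (median 1.31) and between 1.34 and 9.25 CPM in SRDX-FAMA (median 4.32). All 12 SRDX-FAMA libraries were above the NLS median and 10 were above the highest NLS library. The log2 fold change was 1.81 (SE 0.29, adjusted p = 7.1e-04 from edgeR). CER1, the alkane-forming enzyme, had between 3.24 and 8.99 CPM in NLS (median 5.84) and between 4.69 and 17.7 CPM in SRDX-FAMA (median 11). The lowest value of CER1 in that line, 4.69, belonged to the doubtful SRDX-FAMA 4 h replicate 2, and the next was 8.80. Its log2 fold change was 1.01 (SE 0.18, adjusted p = 0.00163). KCS20, the most abundant condensing enzyme transcript, had between 466 and 839 CPM in NLS and between 582 and 1206 CPM in SRDX-FAMA, with 8 libraries above the highest of NLS. Its log2 fold change was 0.49 (SE 0.12, adjusted p = 0.0240). LTPG1, a lipid transfer protein anchored in the plasma membrane, had between 106 and 321 CPM in NLS (median 174) and between 199.5 and 436 CPM in SRDX-FAMA (median 284), a log2 fold change of 0.64 (SE 0.17, adjusted p = 0.0389).

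No gene of the 36 separated the libraries of SRDX-FAMA and NLS completely, which 0.0164% of genes did in that direction. Of the 36, 29 had positive log2 differences and the median was 0.23, against -0.01 over all genes. All 10 elongation genes and all 5 export genes were positive (medians 0.25 and 0.64), whereas 6 of the 11 cutin genes were negative (median -0.17), LTL1 among them at -0.17. Without SRDX-FAMA 4 h replicate 2, 7 genes were called higher (1.47% of all genes), the same 4 with KCS1 (log2 fold change 0.69), KCS2 (0.54) and MYB96 (0.74) added. Without NLS 2 h replicate 3, 2 were called, LTP2 and CER1. The call on LTPG1 was lost, with adjusted p up to 0.0790, without any of 13 of the 23 libraries, and held without SRDX-FAMA 4 h replicate 2. Of the L1 markers, ATML1 and PDF1 were lower in SRDX-FAMA than in NLS (log2 fold changes -0.36 and -1.29), as were 2 of the 9 guard cell markers and 2 of the 7 meristemoid markers, and their part in the calls was not tested.

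**Figure D3:**
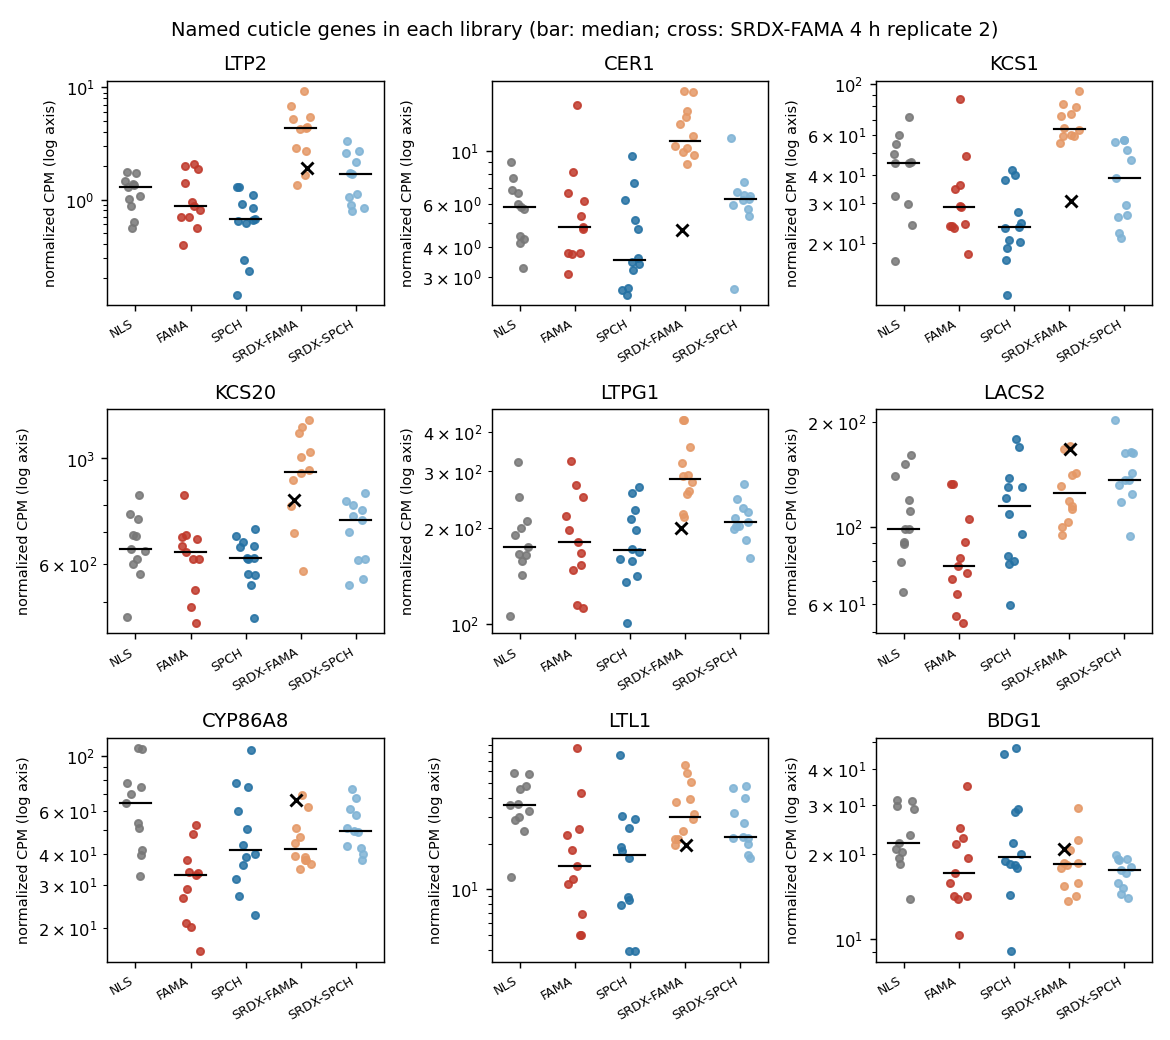
Normalized CPM, on log axes, of 9 named genes in every library of the 5 lines, with bars at the medians and a cross for SRDX-FAMA 4 h replicate 2. LTP2 and CER1 are highest in SRDX-FAMA (medians 4.32 and 11 CPM), with the cross among its lowest libraries, and CYP86A8 is lowest in FAMA (median 32.8 CPM).

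The comparison of SRDX-FAMA with FAMA sets the repressing form against the native form of the same factor. Here 12 of 35 genes rose (34.3%) and none fell, against 8.82% of 24396 genes that were higher. All 5 roles were represented, with 4 of 10 elongation genes, 1 of 6 wax genes, 4 of 11 cutin genes, 2 of 5 export genes and 1 of 3 regulators tested. LTP2 had between 0.394 and 2.07 CPM in FAMA (median 0.879), so that 9 of the 12 SRDX-FAMA libraries were above every FAMA library. Its log2 fold change was 1.95 (SE 0.33, adjusted p = 2.6e-04 from edgeR). KCS1 had between 17.8 and 85.8 CPM in FAMA (median 28.8) and between 30.6 and 93.3 CPM in SRDX-FAMA (median 63.7). The FAMA value of 85.8 came from 1 library and the next was 48.5, while 11 of the 12 SRDX-FAMA libraries were at or above 55.1. The log2 fold change of KCS1 was 1.03 (SE 0.20, adjusted p = 0.00101).

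KCS20 had between 452 and 838 CPM in FAMA (median 636), below 8 of the SRDX-FAMA libraries throughout, and a log2 fold change of 0.59 (SE 0.12, adjusted p = 0.00169). CER1 had between 3.08 and 15.5 CPM in FAMA (median 4.83), and its log2 fold change was 1.05 (SE 0.22, adjusted p = 0.00191). Only 1 FAMA library of CER1, at 15.5, exceeded the SRDX-FAMA median. LACS2, which activates fatty acids for cutin, had between 52.9 and 133 CPM in FAMA (median 77.1) and between 94.98 and 170 CPM in SRDX-FAMA (median 125), a log2 fold change of 0.67 (SE 0.15, adjusted p = 0.00291). The remaining called genes were CER10 (log2 fold change 0.50), LTPG1 (0.67), MYB96 (0.71), KCS2 (0.49), CYP86A8 (0.60), GPAT8 (0.48) and LTL1 (0.97, SE 0.32, adjusted p = 0.0455). LTL1 ranged from 19.5 to 66.6 CPM in SRDX-FAMA, and all 12 of its libraries were above the FAMA median of 14.3. MYB96 encodes a factor that activates wax genes, and GPAT8 an acyltransferase that, with GPAT4, makes the cutin of guard cell ledges. The call on LTL1 held only without FAMA 2 h replicates 2 and 3, SRDX-FAMA 2 h replicates 3 and 4 or SRDX-FAMA 3 h replicate 3, and was lost without any of the other 18 libraries (adjusted p up to 0.110).

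Over the 35 genes, 30 had positive log2 differences and the median was 0.33, against -0.01 over all genes. The 23 genes not called ranged from -0.37 (CYP86A2) to 0.92 (MYB16). No gene of the 35 separated the lines completely, which 0.512% of all genes did. With SRDX-FAMA 4 h replicate 2 left out, 10 genes were called (8.04% of all genes higher). Leaving out FAMA 3 h replicate 3 gave 9 (6.38%). With both left out, a fit added after the data were seen, 9 genes were called (5.93%), namely LTP2, KCS1, CER1, KCS20, KCS2, LACS2, CER10, LTPG1 and MYB96, while CYP86A8, GPAT8 and LTL1 lost their calls. Of the 12 genes called, 10 have an E-box in the window upstream, as do 14 of the 24 other genes and 55.3% of all windows. The 24 include SHN1, which was not tested in this comparison. A link between E-boxes and calls was not tested. Marker genes moved as well. The L1 markers PDF1, PDF2 and HDG2 were higher in SRDX-FAMA than in FAMA (level summed over all 4, 286 to 483 CPM against 171 to 397), the guard cell markers SLAC1 and SCAP1 were lower (745 to 2376 CPM against 1587 to 2525 over the 9 markers), and both myrosin markers were lower (12434 to 46059 CPM against 26008 to 67339). Of the 7 markers of meristemoids and guard mother cells 2 were higher. Their part in the cuticle calls was not tested. FAMA libraries enter both this comparison and that of FAMA with NLS, and SRDX-FAMA libraries enter this one and that with NLS.

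For SPCH, the fusion to SRDX was accompanied by fewer calls. Against SPCH, 2 of 34 genes rose (5.88%) and none fell, and 5.38% of 24640 genes were higher. LTP2 had between 0.142 and 1.30 CPM in SPCH (median 0.665) and between 0.786 and 3.33 CPM in SRDX-SPCH (median 1.67), with 6 of 11 SRDX-SPCH libraries above the highest SPCH library. The log2 fold change was 1.26 (SE 0.32, adjusted p = 0.0119 from edgeR). CER1 had between 2.53 and 9.56 CPM in SPCH (median 3.52) and between 2.67 and 11.4 CPM in SRDX-SPCH (median 6.32), a log2 fold change of 0.56 at the edge of the threshold (SE 0.18, adjusted p = 0.0496). The call on CER1 was lost, with adjusted p up to 0.0989, without any of 16 of the 23 libraries, and held without SPCH 2 h replicates 1 and 3, SPCH 3 h replicate 2, SRDX-SPCH 2 h replicates 1 to 3 and SRDX-SPCH 4 h replicate 1. KCS1 had an adjusted p of 0.0590. LTL1 had a log2 difference of 0.58 (SE 0.36, adjusted p = 0.359), and passed the threshold with the letter block (1.12, adjusted p = 0.00237). The median over the 34 genes was 0.06 and that over all genes 0.01. The L1 markers ATML1 and PDF1 were higher in SRDX-SPCH than in SPCH (log2 fold changes 0.34 and 1.02), as were 3 of the 7 meristemoid and guard mother cell markers, while 2 of the 9 guard cell markers and 1 of the 2 myrosin markers were lower. Their part in the calls was not tested. Whether these differences are smaller than those between SRDX-FAMA and FAMA was not tested.

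Against NLS, SRDX-SPCH had no gene of 35 called, with 2.67% of 24480 genes called in either direction (edgeR). At an unadjusted p under 0.05 there were 4 of the 35, against 12.9% of all genes. The smallest p belonged to BDG1, an epidermal hydrolase needed for cutin, which had between 13.8 and 31.0 CPM in NLS (median 21.9) and between 14.0 and 19.9 CPM in SRDX-SPCH (median 17.7). All 11 SRDX-SPCH libraries thus lay below the NLS median, within the range of NLS. Its log2 difference was -0.43 (SE 0.12, adjusted p = 0.0587). DESeq2 called this gene alone (4.98% of all genes), and so did edgeR without NLS 4 h replicate 2 or without SRDX-SPCH 4 h replicate 4 (adjusted p = 0.0156 and 0.0442, respectively). The letter block called it (adjusted p = 0.0193) together with LACS2 and MYB96. LTL1 ranged from 16.1 to 47.9 CPM, with a log2 difference of -0.41 (SE 0.23, adjusted p = 0.517).

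Between the 2 native factors no cuticle gene was called. In SPCH against FAMA over all time points the count was 0 of 35, with 1.57% of 24549 genes called by edgeR, 2 of the 35 at an unadjusted p under 0.05 (10.3% of all genes) and none by DESeq2 (2.57%). CYP86A8, with a median of 41.7 CPM in SPCH and 32.8 CPM in FAMA, had the smallest p, a log2 difference of 0.70 (SE 0.24, adjusted p = 0.207). With the letter block LTP1 was called, lower in SPCH (-0.61, adjusted p = 0.0386). At single time points edgeR and DESeq2 again called none of the 32 or 33 genes tested. At 2 h edgeR called 0.00881% of all genes and DESeq2 0.665%, and 2 of 32 cuticle genes had an unadjusted p under 0.05 (4.84% of all genes). CER3 had the smallest p there, with 187.7 to 355 CPM in SPCH, 292 to 437 CPM in FAMA and a log2 difference of -0.55 (SE 0.21, adjusted p = 0.869). Of the 32 genes, 29 were lower in SPCH at 2 h, with a median of -0.33 against 0.01 over all genes. At 3 h edgeR called 0.0133% and DESeq2 0.755% of all genes, 3 cuticle genes had an unadjusted p under 0.05 (8.72% of all genes), and MYB96 stood first at 0.55 (SE 0.15, adjusted p = 0.491). At 4 h the shares were 0.00892% and 0.419%, 4 cuticle genes had an unadjusted p under 0.05 (4.87%), and CYP86A8 stood first at 1.08 (SE 0.40, adjusted p = 0.893). The median over the cuticle genes was 0.12 at both of these times.

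**Figure D4:**
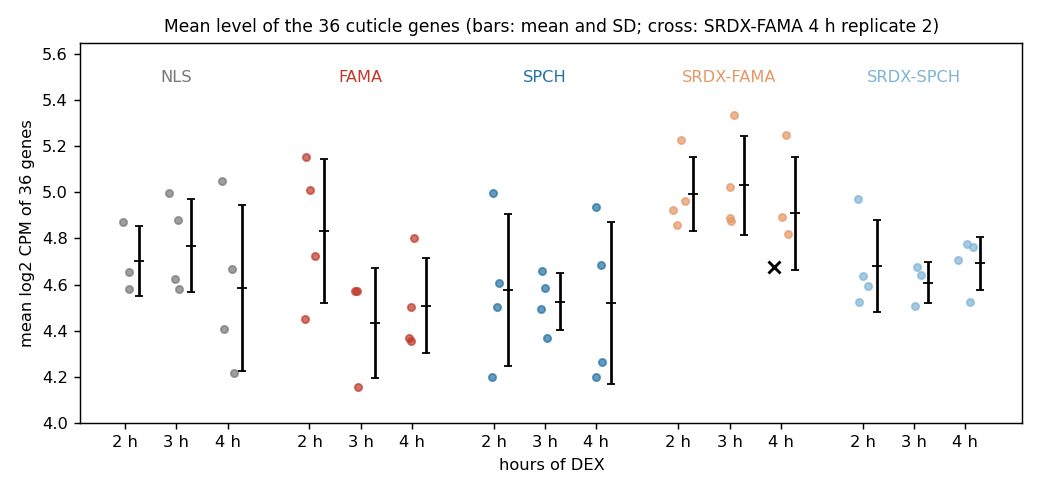
Mean log2 CPM over the 36 genes in each library by line and hours of DEX, with mean and SD per group beside the points and a cross for SRDX-FAMA 4 h replicate 2. SRDX-FAMA has the highest group means (4.99, 5.03 and 4.91 at 2, 3 and 4 h), and the FAMA mean is 4.83 at 2 h and 4.43 at 3 h.

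Averaged over the 36 genes, the level on the log2 CPM scale was 4.83 ± 0.31 in FAMA at 2 h (SD, n = 4), 4.43 ± 0.24 at 3 h (n = 3) and 4.51 ± 0.21 at 4 h (n = 4). In NLS it was 4.70, 4.77 and 4.59. The group means of SPCH lay between 4.52 and 4.58, those of SRDX-SPCH between 4.61 and 4.69 and those of SRDX-FAMA between 4.91 and 5.03. This mean weights scarce and abundant genes alike and was not tested.

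Within the FAMA line, 3 genes stood out over time. LTL1 had 22.8, 85.4, 43.0 and 25.01 CPM in the 4 libraries at 2 h. At 3 h it had 5.02, 18.1 and 6.88 CPM, and at 4 h 11.8, 5.0, 14.3 and 10.8 CPM. Every FAMA library at 2 h was thus above every FAMA library at 3 and 4 h. The study picked LTL1 from these same libraries, and its selection included tests of time within FAMA. The drop of LTL1 and its calls over time are therefore not independent evidence. In NLS, by contrast, LTL1 had group means of 42.4, 36.9 and 33.9 CPM at 2, 3 and 4 h. The log2 difference between 4 h and 2 h in FAMA was -2.07 (SE 0.49, adjusted p = 0.0998 from edgeR). LTP1, a lipid transfer protein, had 175, 408, 165 and 127 CPM at 2 h, 27.3, 82.9 and 56.0 CPM at 3 h and 72.8, 25.6, 39.8 and 50.8 CPM at 4 h, again with no overlap between 2 h and the later times. Its log2 difference between 4 h and 2 h was -2.203 (SE 0.44, adjusted p = 0.0770). MYB16, a regulator of cuticle genes in the epidermis, was looked at because DESeq2 called it. It had 11.7, 39.8, 15.2 and 6.73 CPM at 2 h, 3.08, 8.30 and 4.44 CPM at 3 h and 8.03, 3.12, 4.31 and 5.37 CPM at 4 h, so that its groups overlapped, and its log2 difference between 4 h and 2 h was -1.81 (adjusted p = 0.132).

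By edgeR, none of the 35 genes tested was called over time in FAMA, nor was any of the 23598 genes (0%). In 12 of 35 cuticle genes some contrast had an unadjusted p under 0.05, against 17.9% of all genes. DESeq2 called 3, the same LTL1, LTP1 and MYB16, and 5.13% of all genes. Of the 35, 28 had negative log2 differences between 4 h and 2 h, with a median of -0.33 against -0.02 over all genes. Without FAMA 2 h replicate 4, edgeR called LTP1 (adjusted p = 0.0291), and with the letter block it called LTP1, LTL1 and MYB16 (adjusted p = 0.00323, 0.0105 and 0.0201). LTL1 and LTP1 were the 2 of 35 genes with all 2 h libraries above all later ones, as in 2.24% of all genes. MAH1 and AT5G33370, both near the limit of detection, were the 2 with all 2 h libraries below, as in 1.57% of all genes.

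**Figure D5:**
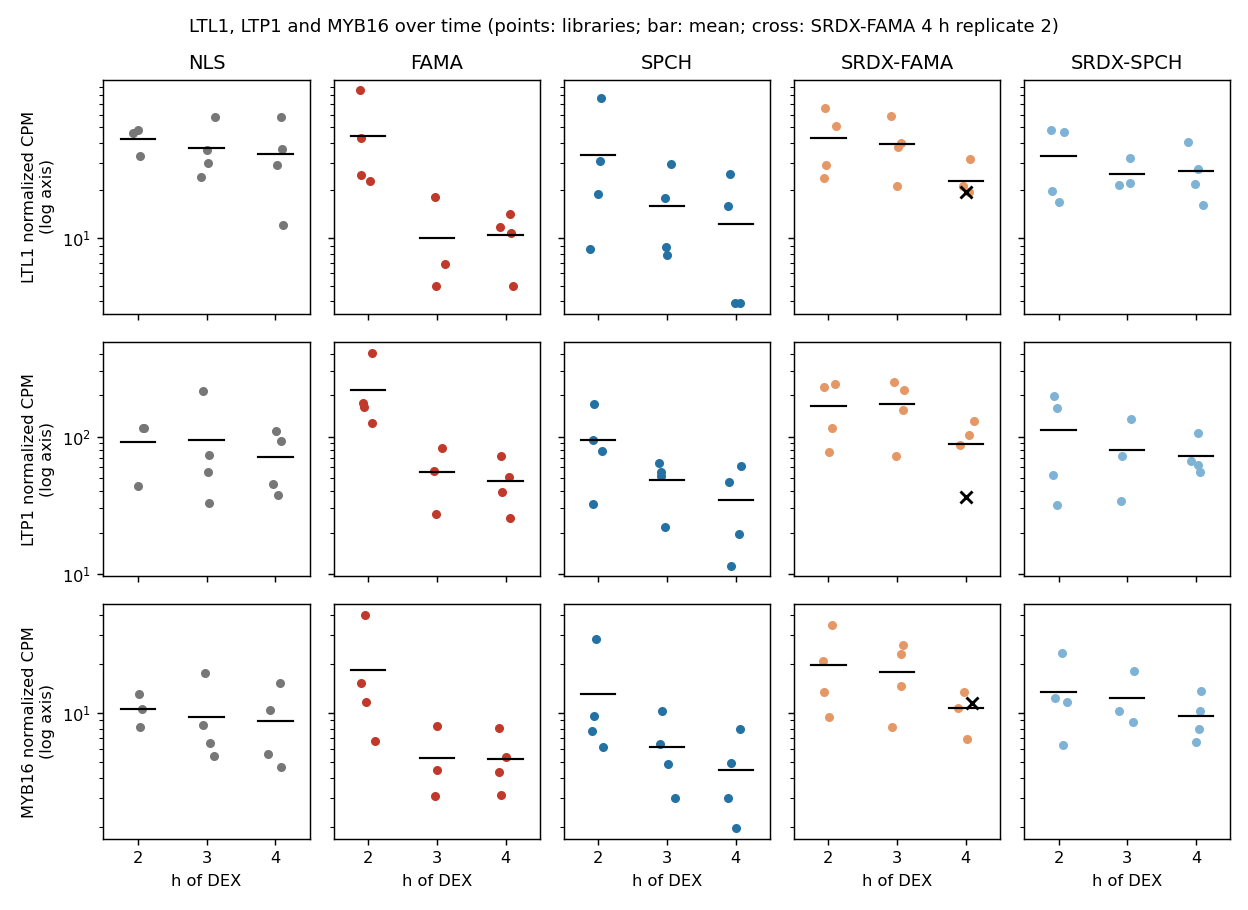
Normalized CPM, on log axes, of LTL1, LTP1 and MYB16 in each library of the 5 lines at 2, 3 and 4 h of DEX, with bars at the means and a cross for SRDX-FAMA 4 h replicate 2. In FAMA, LTL1 and LTP1 at 2 h (lowest 22.8 and 127 CPM) lie above all libraries at 3 and 4 h, while the NLS groups overlap.

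The same 3 genes in the other lines were more scattered. LTL1 in SPCH had 30.5, 76.7, 19.0 and 8.52 CPM at 2 h and 3.89, 25.3, 16.0 and 3.93 CPM at 4 h, a log2 difference of -1.44 (SE 0.70, adjusted p = 0.704). The group means of LTP1 were 94.7, 48.3 and 34.8 CPM in SPCH and 91.8, 94.1 and 71.5 CPM in NLS. In SRDX-FAMA LTL1 had a log2 difference between 4 h and 2 h of -0.88 (SE 0.35, adjusted p = 1.0), the smallest p of that line. No cuticle gene was called by edgeR or DESeq2 within SPCH (3 of 33 at an unadjusted p under 0.05), NLS (0 of 35), SRDX-FAMA (1 of 34) or SRDX-SPCH (3 of 33). The shares of all genes at an unadjusted p under 0.05 were 10.3%, 5.68%, 2.92% and 8.79%, those called by edgeR 0%, 0%, 0% and 0.0042%, and those called by DESeq2 0.811%, 0.0334%, 0% and 0.416%, in the same order. CER1 had the smallest p in SPCH, falling in group means from 6.70 to 3.17 CPM between 2 and 4 h with a log2 difference of -1.09 (SE 0.30, adjusted p = 0.381).

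The change from 2 to 4 h was compared with that of NLS by an interaction term. For FAMA, LTL1 had a difference of changes of -1.75 on the log2 scale (SE 0.71, adjusted p = 0.968) and LTP1 one of -1.85. AT5G33370, a GDSL lipase gene at the edge of detection, had the smallest p with 2.21 (SE 0.71, adjusted p = 0.968). None of 35 genes was called by edgeR or DESeq2, and none of all genes (0%) by either, while 5 of the 35 had an unadjusted p under 0.05 (5.01% of all genes). For SPCH the LTL1 term was -1.13 (SE 0.91, adjusted p = 1.0), none of 35 was called by either tool (0% of all genes), and none had an unadjusted p under 0.05 (2.4% of all genes). The time dependence in FAMA is therefore not shown to differ from that in NLS.

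A second list of cuticle genes outside the 36 was counted for comparison, with 25 of 31 listed genes whose symbol matched the annotation. Left out for lack of a match were CFL1, BDG3, CER16, CER1-L1, OSP1 and FOCL1. The study's introduction names OSP1 and FOCL1 as genes that opening of the cuticular ledge depends on. In SRDX-FAMA against FAMA 6 of the 25 were higher and none lower, against 12 and none of the 35, with 8.82% of all genes higher. They were CYP86A4 (log2 fold change 0.81), DEWAX (0.69), KCS16 (0.72), CB5-B (0.73), MYB94 (0.52) and PAS1 (0.46). DEWAX is a repressor of wax genes and MYB94 an activator. In SRDX-FAMA against NLS, CYP86A4 (0.84), DEWAX (0.54) and CB5-B (0.73) were higher, as were 0.929% of all genes. SHN2 was lower (-1.37), as were 321 of all 24327 genes. SHN2, a paralogue of SHN1 that activates cutin genes, was also lower in FAMA (-2.27, SE 0.30, adjusted p = 1.5e-05 from edgeR) and in SPCH (-1.66) than in NLS. In SPCH against NLS KCS16 (-0.73) and CER26 (-0.91) were lower too. Of all genes, 5.47% were lower in FAMA than in NLS and 4.13% in SPCH than in NLS. In SRDX-SPCH against SPCH 4 were higher (5.38% of all genes) and 1, CYP77A6 (-1.11), was lower (1525 of all 24640 genes). None of the 25 was called in SRDX-SPCH against NLS (2.67% of all genes) or in SPCH against FAMA (1.57%).

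Counting could blur a few of these genes. Strand use in counting is not given in the sources used here, and exons of another gene lie on the opposite strand over 1299 of the 2044 exonic bases of KCS2, 1229 of 1617 of MYB106, 1025 of 3207 of ABCG11 and 909 of 2215 of CYP86A2. Exact copies of read length were rare. Of the 50-base exon windows of a gene, at most 0.333% (GPAT8) occurred elsewhere in the nuclear genome without a mismatch. None of those of LTP1 and LTP2 did. Copies that differ by a mismatch were not searched for, so reads shared between near-identical genes were not tested.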

How the data were processed

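The 36 cuticle genes were read in 57 libraries of 5 lines at 3 time points. The deposited table holds raw counts per gene that the authors made with STAR and HTSeq on TAIR10 (versions and strand setting not given in the sources used here) from 50-base single-end reads of SMART-Seq v4 libraries. Of its 57 columns, 56 were matched to samples by library name. The other begins as FAMA 4 h names do, and the only sample left without a column was FAMA 4 h replicate 4. No sample record has the name of that column, so it was used as a FAMA 4 h library with no replicate number or letter. Fits with a replicate or letter block leave it out. 0 columns were left out.

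Counts were tested with edgeR 4.0.16 (quasi-likelihood test, TMM scaling, filterByExpr with a minimum count of 10, Benjamini-Hochberg adjustment over all genes tested, threshold 0.05) in R 4.3.3. Each comparison was fitted on its own libraries, with time point as a term between lines. Standard errors are the log2 fold change divided by the root of F. CPM are scaled by TMM. Alternatives were DESeq2 1.42.0, its size factors, no filter, a threshold of 0.1, 1 fit of all 57 libraries, blocks by replicate number or library letter, SPCH and FAMA counts removed, and each library left out.

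The genes and lists were chosen with earlier results of these data known. Named are LTL1, up to 5 called genes with the smallest adjusted p per comparison of lines, and the gene with the smallest p where none was called. Others were named after their values were seen. Gene positions, exons and windows come from RefSeq's TAIR10.1. 2 libraries that went against their labels or stood apart were kept under their labels, and leaving both out was an alternative chosen after seeing the data.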

Additional observations from a re-analysis of the deposited data

Results flagged for a closer look

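The 48 groups of 4 libraries (12 groups for each of LTL1, LTP1, MYB16 and the mean level) were checked for a library far from the other 3, and chance alone gives about 1 in 20 such groups. MYB16 had 28.4 CPM in SPCH 2 h replicate 2, where the other 3 libraries had 6.20 to 9.58 CPM. LTL1 had 31.3 CPM in SRDX-FAMA 4 h replicate 4, against 19.5 to 21.4 CPM in the others, which include the doubtful replicate 2.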

How the results depend on the processing

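Counts of cuticle genes called moved with the test more than the fold changes did. DESeq2 called 2 genes in SPCH against NLS, 8 in SRDX-FAMA against NLS, 1 in SRDX-SPCH against NLS and 3 over time in FAMA, against 1, 4, 0 and 0 by edgeR. A threshold of 0.1 gave 1 in SRDX-SPCH against NLS (986 of all genes) and 4 in SRDX-SPCH against SPCH (3956 of all genes). Over time in FAMA it gave 2 (309 of all genes). The fit of all 57 libraries gave 2 in SPCH against NLS and 1 in SRDX-SPCH against SPCH. With 1 library left out, the count ran from 1 to 2 in FAMA against NLS, 0 to 2 in SPCH against NLS, 2 to 7 in SRDX-FAMA against NLS, 0 to 1 in SRDX-SPCH against NLS, 9 to 14 in SRDX-FAMA against FAMA, 1 to 4 in SRDX-SPCH against SPCH and 0 to 1 over time in FAMA. The cause of these shifts was not tested. The replicate numbers of the labels did not pair the libraries (mean correlation of same-numbered libraries between -0.13 and 0.20 over the comparisons, lowest pair -0.70), and with the replicate block the count was 1 in FAMA against NLS, 0 in SPCH against NLS, 1 in SRDX-SPCH against NLS, 1 in SRDX-SPCH against SPCH and 9 in SRDX-FAMA against FAMA. Libraries that shared a letter had mean correlations of -0.04 to 0.43, against -0.07 to 0.01 for libraries with different letters. The mean for a shared letter was highest over time in FAMA (lowest pair 0.07, different letters -0.06). It was 0.38 in SRDX-FAMA against FAMA (7 of 34 pairs below 0.1, different letters -0.07). Every comparison had a pair below 0.1, and the letter was used only as an alternative block. The main fits therefore do not remove variation that libraries with the same letter share. The letter block gave 7 in SPCH against NLS, 11 in SRDX-FAMA against NLS, 16 in SRDX-FAMA against FAMA and 3 in SRDX-SPCH against NLS. It gave 1 in SPCH against FAMA, 11 in SRDX-SPCH against SPCH and 3 over time in FAMA. No called fold change of a named gene reversed under these settings. Of the named genes' values, 272 kept their side of the threshold, 11 passed it (5 of them with the letter block) and 8 lost it under the other settings, and 662, 4 and 74 did so with 1 library left out. Median fold changes over the cuticle genes moved by less than 1 SD of the library spread under each of these settings, in the 7 comparisons of lines. That SD was 0.21 to 0.28, larger than most of the medians, so this does not show that their signs held. With 1 library left out, the median ran from -0.084 to 0.041 in FAMA against NLS and from -0.108 to 0.013 in SPCH against NLS. It ran from -0.075 to 0.061 in SRDX-SPCH against NLS and from -0.142 to 0.005 in SPCH against FAMA. In the other comparisons of lines it stayed positive. Over all genes, DESeq2 called 2503 in SPCH against NLS, 1194 in SRDX-FAMA against NLS, 1220 in SRDX-SPCH against NLS and 631 in SPCH against FAMA, where edgeR called 1684, 547, 653 and 385. It called 151, 170 and 94 in SPCH against FAMA at 2, 3 and 4 h against 2, 3 and 2, and 1211, 189, 99 and 8 over time in FAMA, SPCH, SRDX-SPCH and NLS against 0, 0, 1 and 0. The letter block gave 3930 genes in SPCH against NLS, against 1684, and 1351, 1294 and 340 in SRDX-FAMA against NLS, SRDX-SPCH against NLS and over time in FAMA. In SRDX-FAMA against FAMA, SRDX-SPCH against SPCH and SPCH against FAMA it gave 4257, 3965 and 483, against 3208, 2851 and 385 without a block. The fit of all 57 libraries gave 964 in SRDX-FAMA against NLS and 209 over time in FAMA. It gave 1705 in SPCH against NLS and 2580 in SRDX-SPCH against SPCH. The replicate block gave 1743 in FAMA against NLS, 1477 in SPCH against NLS and 704 in SRDX-SPCH against NLS. In SRDX-SPCH against SPCH and SRDX-FAMA against FAMA it gave 2337 and 2320. With 1 library left out, shares over all genes are given above only for the 2 libraries in doubt.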
